A study of Homo sapiens with 4 samples.

Results

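Aminoacyl-tRNA synthetases are the enzymes that join each amino acid to its transfer RNA (tRNA), so that the ribosome can read the genetic code. Cytosolic and mitochondrial protein synthesis mostly use separate enzymes encoded by separate nuclear genes, and several cytosolic enzymes sit together with scaffold proteins in a multi-synthetase complex. Many cytosolic synthetase genes are known targets of ATF4, the transcription factor of the amino acid response, which binds C/EBP-ATF type elements in their promoters.

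The genes were chosen by symbol: an amino acid letter followed by ARS, with the usual suffixes, together with EPRS1 and the scaffold proteins AIMP1, AIMP2 and EEF1E1. This gave 41 of the 60612 genes in the count table, and all 41 passed the filter on low counts that left 17537 genes for testing. They were 21 cytosolic synthetases, 17 mitochondrial synthetases (suffix 2) and 3 scaffold proteins. GARS1 and KARS1, counted here as cytosolic, each encode the cytosolic and the mitochondrial enzyme.

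RNA was sequenced from IMR-32, a human neuroblastoma line in which MYCN is amplified. Every culture had been transduced by lentivirus with a hairpin that doxycycline switches on, and both groups received 1 µg/mL of doxycycline over 48 h. The hairpin was a scrambled control in 2 libraries (shControl) and was directed against NeuroD1, a neuronal basic helix-loop-helix transcription factor, in the other 2 (shNeuroD1). More than 1 NeuroD1 hairpin was used in the study, numbered as these titles are, although the study elsewhere names both knockdown libraries after the same hairpin. The labels do not settle it, so whether the spread between the shNeuroD1 libraries is that of replicates or of hairpins cannot be told apart. Other labels name the shControl cells wild type or parental, and they are described here only by their hairpin. Whether libraries of the same group came from different cultures is not labelled, so the p-values measure only the spread between these libraries, which may be technical. Because these are bulk samples, fewer cells of a kind and less RNA per cell cannot be told apart.

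Total counts were 14665210 to 16482463 per library, of which the 41 genes took 63534 to 90546. NEUROD1 itself was at 6174 and 6582 counts with the control hairpin and at 969 and 886 on knockdown. Its log2 fold change was -2.77 (SE 0.0504, adjusted p = 8.6e-29 in edgeR's quasi-likelihood test). Levels are given in CPM, counts scaled to library size after adjustment by TMM factors. Those factors were 0.959 and 0.965 in shControl and 1.04 and 1.04 in shNeuroD1. Of 9 markers of sympathetic neuroblastoma, 9 had a mean of at least 1 CPM. The catecholamine enzymes TH and DBH were near that floor in shControl (0.969 and 1.54 CPM). Of 6 fibroblast markers, 3 reached that mean, and their summed level was 145 to 149 CPM in shControl and 59.7 to 64.2 CPM in shNeuroD1, nearly all of it from PDGFRA and COL1A1. COL3A1 and LUM were at low levels and went the other way, COL3A1 from 0 and 2 counts to 15 and 18 (adjusted p = 6.3e-05) and LUM from 14 and 10 to 37 and 37 (adjusted p = 0.000407). COL1A2 and DCN had 0 counts in both shNeuroD1 libraries, and COL1A2 had 0 and 3 in shControl. Of 3 immune and 2 endothelial markers, none but CDH5 (1.15 CPM in shControl) reached 1 CPM in either group. The part of these differences in the results below was not tested.

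The promoters of the cytosolic synthetases are shown first, because 6 of the 8 cytosolic enzymes that fell furthest hold the same motif there. RefSeq promoter sequences (GRCh38.p14, 250 bases before to 50 after each start) were matched for 33 of the 41 genes. VARS2, YARS1, LARS1, VARS1, TARS3 and AARS2 were among those not matched. The motif TGATGNAA, the core of the C/EBP-ATF type element, was searched on both strands. It was found in 3.62% of 35116 promoters and in 2.02% of the 17175 promoters of genes tested. Of 45 promoters belonging to the 33 genes, 8 held it (17.8%), and these belonged to 8 genes: 7 of the 16 matched cytosolic synthetases and 1 of the 14 matched mitochondrial ones. A match is a description of letters and not a bound site. The 8 matches are printed with their flanks, 5′ to 3′ on the strand of the gene, with the motif or its reverse complement in capitals.
CARS1 promoter: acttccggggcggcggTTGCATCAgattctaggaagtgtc
GARS1 promoter: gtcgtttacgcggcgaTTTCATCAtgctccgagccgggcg
MARS1 promoter: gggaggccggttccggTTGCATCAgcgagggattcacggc
NARS1 promoter: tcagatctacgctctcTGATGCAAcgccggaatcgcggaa
TARS1 promoter: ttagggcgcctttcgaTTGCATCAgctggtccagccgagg
IARS1 promoter: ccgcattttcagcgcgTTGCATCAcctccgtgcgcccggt
AARS1 promoter: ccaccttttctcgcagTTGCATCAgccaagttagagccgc
YARS2 promoter: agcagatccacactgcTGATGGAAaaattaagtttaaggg

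These stretches lie at chr11:3057402-3057441 (minus strand, CARS1), chr7:30594829-30594868 (plus, GARS1), chr12:57488048-57488087 (plus, MARS1), chr18:57621799-57621838 (minus, NARS1), chr5:33440951-33440990 (plus, TARS1), chr9:92293687-92293726 (minus, IARS1), chr16:70289670-70289709 (minus, AARS1) and chr12:32756071-32756110 (minus, YARS2), all in GRCh38.p14. In 6 of the 8 the first base of the motif lay close to the transcription start, at -33 in GARS1, -13 in IARS1, -4 in MARS1, -2 in CARS1, 2 in TARS1 and 14 in NARS1. In AARS1 it lay at -187 and in YARS2 at -197. The 7 cytosolic genes with the motif all fell on NeuroD1 knockdown, with log2 fold changes of -1.15 to -0.60 (median -0.86). Of the 9 matched cytosolic genes without it, 5 fell, with log2 fold changes of -0.98 to 0.11 (median -0.19). SARS1, which fell by 0.98 on the log2 scale, was among those 9. Among all tested genes 28.2% were lower at an adjusted p under 0.05, and a link between motif and change was not tested. The whole 300-base promoter of MARS1, at chr12:57487818-57488117 on the plus strand, shows the element beside the start.
MARS1 promoter, 300 bases: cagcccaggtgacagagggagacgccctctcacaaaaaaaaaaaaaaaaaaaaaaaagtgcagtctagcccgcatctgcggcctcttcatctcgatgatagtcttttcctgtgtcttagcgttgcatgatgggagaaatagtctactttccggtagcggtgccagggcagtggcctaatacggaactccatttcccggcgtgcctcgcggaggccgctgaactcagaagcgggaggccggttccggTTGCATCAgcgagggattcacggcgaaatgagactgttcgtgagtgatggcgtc

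Other motifs were fewer among these genes. CACGTG, the E-box of MYC-type proteins, was in 7.26% of all promoters, in 9.18% of those of genes tested and in 13.3% of the 45, those of AIMP2, CARS2, EARS2, IARS1 and MARS2. CAGATG, an E-box of the NeuroD type, was in 14.7% of all promoters, in 10.7% of those of genes tested and in 8.89% of the 45, those of CARS2, MARS1, NARS2 and RARS2. In IARS1, MARS1 and CARS2, which hold more than 1 of the motifs, the matches did not overlap.

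The comparison of shNeuroD1 with shControl asked which of these genes changed on NeuroD1 knockdown. Cytosolic synthetases fell and mitochondrial synthetases mostly did not. Of 21 cytosolic synthetases, 16 were lower at an adjusted p under 0.05, 0 were higher and 5 did not pass, against 28.2% of all tested genes lower and 26.8% higher. In DESeq2 the count of higher cytosolic genes was also 0, and at an unadjusted p under 0.05 it was 2 (FARSB and HARS1). The median log2 fold change of the cytosolic group was -0.60, beside 0.01 over all genes tested. Of 17 mitochondrial synthetases, 3 were lower, 5 were higher and 9 did not pass, with a median of 0.03. The cytosolic genes summed to 4733 ± 18.8 CPM (SD, n = 2) in shControl and to 3164 ± 8.79 CPM in shNeuroD1, which is 66.9% of shControl. The mitochondrial genes summed to 815 ± 7.61 CPM and 853 ± 12.2 CPM in the same order, or 105% of shControl.

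**Figure D1:**
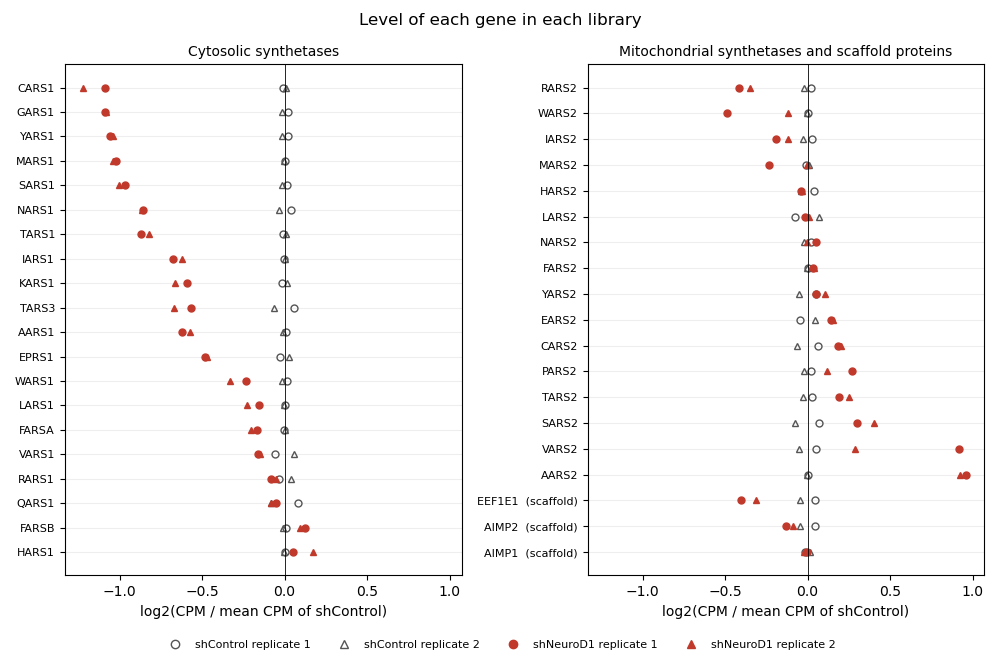
Level of the genes reported singly in each of the 4 libraries, as log2 of its CPM over the mean CPM of shControl, with open symbols for shControl and filled symbols for shNeuroD1 (circles replicate 1, triangles replicate 2). Cytosolic genes are ordered from CARS1 (log2 fold change -1.15) to HARS1 (0.11), and the shNeuroD1 symbols of the upper 12 genes lie well to the left of the shControl symbols, whereas the mitochondrial genes spread on both sides of 0.

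CARS1, GARS1, YARS1 and MARS1 were below a log2 fold change of -1 as well as past the adjusted p, as were 5.14% of all tested genes. No gene of the 41 passed both thresholds in the higher direction, in edgeR, in DESeq2 or at an unadjusted p, whereas 8.79% of all tested genes did in edgeR. CARS1 (ENSG00000110619, chr11:3000922-3057613 in GRCh38, minus strand) charges cysteine. Its counts were 1681 and 1836 in shControl against 822 and 749 in shNeuroD1, or 115 ± 1.11 and 51.6 ± 3.43 CPM (SD, n = 2). The knockdown libraries were both less than 50% of either control library, and the log2 fold change was -1.15 (SE 0.0580, adjusted p = 2.0e-17). GARS1 (ENSG00000106105, chr7:30594681-30634033, plus strand) charges glycine. Its level was 387 and 377 CPM in shControl and 179 and 180.2 CPM in shNeuroD1, which gave a log2 fold change of -1.09 (SE 0.0430, adjusted p = 4.0e-20). GARS1-DT, a divergent transcript on the opposite strand that shares 99 exon bases with it, was higher in shNeuroD1 (log2 fold change 0.50, SE 0.0623, adjusted p = 3.5e-08).

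YARS1 (ENSG00000134684, chr1:32775237-32818153, minus strand) charges tyrosine. Its level was 145 and 142 CPM in shControl against 68.7 and 69.6 CPM in shNeuroD1 (log2 fold change -1.05, SE 0.0520, adjusted p = 1.3e-17). MARS1 (ENSG00000166986, chr12:57475445-57517569, plus strand) charges both initiator and elongator tRNAs with methionine, and it is a member of the multi-synthetase complex. Its level was 432 and 431 CPM in shControl and 213 and 210.4 CPM in shNeuroD1. It fell by a log2 fold change of -1.03 (SE 0.0420, adjusted p = 8.7e-20), and replicates differed by far less than the groups. MARS1 shares 5.05% of its exon bases with DDIT3, a stress transcription factor on the opposite strand, which had 79 to 117 counts against the 3203 to 6848 of MARS1.

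A further 4 enzymes fell by less than a log2 unit. SARS1, for serine and, by way of serine, selenocysteine, had 468 and 457 CPM in shControl and 237 and 231 CPM in shNeuroD1 (log2 fold change -0.98, SE 0.0420, adjusted p = 2.8e-19). NARS1, for asparagine, had 389 and 370.2 CPM in shControl and 209 and 208 CPM in shNeuroD1 (log2 fold change -0.86, SE 0.0433, adjusted p = 1.9e-17). TARS1, for threonine, had 321 and 325 CPM in shControl and 177 and 183 CPM in shNeuroD1 (log2 fold change -0.84, SE 0.0435, adjusted p = 3.8e-17). In each of these the groups lay far apart. IARS1, for isoleucine and a member of the complex, had 432 and 435 CPM in shControl and 272 and 282 CPM in shNeuroD1 (log2 fold change -0.65, SE 0.0417, adjusted p = 1.1e-14). The other 8 that fell were KARS1 for lysine (-0.63), TARS3, a second threonine enzyme (-0.62), AARS1 for alanine (-0.60), EPRS1, the fused enzyme for glutamate and proline (-0.48), WARS1 for tryptophan (-0.28), LARS1 for leucine (-0.19), FARSA, the alpha subunit for phenylalanine (-0.19), and VARS1 for valine (-0.15).

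The cytosolic synthetases that did not pass included RARS1, QARS1, FARSB and HARS1. RARS1, for arginine, had 98.0 and 103 CPM in shControl and 95.0 and 97.0 CPM in shNeuroD1 (log2 fold change -0.07, SE 0.0526, adjusted p = 0.287). QARS1, for glutamine, had 150.3 and 134 CPM in shControl and 137 and 134 CPM in shNeuroD1, with overlapping groups (log2 fold change -0.07, SE 0.0518, adjusted p = 0.287). RARS1 and QARS1 are members of the multi-synthetase complex. FARSB, the beta subunit for phenylalanine, had 94.0 and 92.8 CPM in shControl and 102 and 99.4 CPM in shNeuroD1 (log2 fold change 0.11, SE 0.0520, adjusted p = 0.0824). HARS1, for histidine, had 106 and 106 CPM in shControl and 110.0 and 119.8 CPM in shNeuroD1 (log2 fold change 0.11, SE 0.0524, adjusted p = 0.0663). FARSA and FARSB encode the subunits of the same enzyme and had log2 fold changes of opposite sign, although only that of FARSA passed.

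The members of the multi-synthetase complex did not move as a block. Of its 11 genes, 6 were lower and 5 did not pass (median -0.19), with log2 fold changes from -1.03 for MARS1 to -0.01 for AIMP1. Among all tested genes 28.2% were lower. Of the 13 cytosolic synthetases outside it, 11 were lower (median -0.62). EEF1E1, a scaffold protein of the complex, had 37.7 and 35.5 CPM in shControl and 27.7 and 29.5 CPM in shNeuroD1 and fell (log2 fold change -0.35, SE 0.0799, adjusted p = 0.000342). AIMP2 had 47.4 and 44.5 CPM in shControl and 41.9 and 43.3 CPM in shNeuroD1 and did not pass (log2 fold change -0.11, SE 0.0697, adjusted p = 0.196). AIMP1 had 91.1 and 93.0 CPM in shControl and 91.8 and 90.7 CPM in shNeuroD1, with overlapping groups (log2 fold change -0.01, SE 0.0528, adjusted p = 0.863).

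Synthetases fall into structural classes by the fold of the catalytic domain. Of 9 cytosolic class I enzymes 7 were lower (median -0.28), and of 11 class II enzymes 8 were lower (median -0.62), beside 28.2% of all tested genes. EPRS1 holds a domain of each class and was counted in neither. The division by known response to ATF4 separated the cytosolic genes more. Of the 13 synthetases known as ATF4-responsive, 13 were lower, with a median of -0.84. With scaling by library size alone, LARS1 (-0.08) and VARS1 (-0.04) among them did not pass. Of the 8 others, 3 were lower (KARS1, TARS3 and FARSA), with a median of -0.09. The list was taken from background knowledge with earlier results of these data known, so it is not independent evidence of a direction. All 7 cytosolic genes with the TGATGNAA motif are among these 13, so the divisions by motif and by ATF4 response largely repeat each other. Whether ATF4 took part in these changes was not tested. ATF4 itself had 514 and 490.0 CPM in shControl and 238 and 238 CPM in shNeuroD1 (log2 fold change -1.08, SE 0.0423, adjusted p = 3.2e-20).

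Among the mitochondrial synthetases AARS2 rose most. AARS2 (ENSG00000124608, chr6:44299654-44313326, minus strand), for alanine, went from 1045 and 1123 counts in shControl to 2099 and 2046 in shNeuroD1. This was 70.8 ± 0.126 CPM against 136 ± 2.56 CPM, a log2 fold change of 0.94 (SE 0.0521, adjusted p = 2.3e-16), with all knockdown values above all control values. TMEM151B, a gene on the opposite strand whose exons share 235 bases (5.47%) with those of AARS2, also rose, from 685 and 683 counts to 3246 and 3327 (log2 fold change 2.27, SE 0.0543, adjusted p = 1.1e-25). Whether the counting used strand is not given in the sources used here, so part of the reads of AARS2 and TMEM151B cannot be told apart.

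VARS2, for valine, had few reads, with 42 and 42 counts in shControl against 79 and 51 in shNeuroD1 (log2 fold change 0.64, SE 0.247, adjusted p = 0.0290). Without shNeuroD1 replicate 1 its log2 fold change was 0.28, and without shNeuroD1 replicate 2 it was 0.92. Leaving out shControl replicates 1 and 2 gave 0.68 and 0.57. The size of the rise in the counts thus depended most on the shNeuroD1 libraries, which differed from each other. Of the exon bases of VARS2, 22.0% are shared with GTF2H4 on the same strand. SARS2, for serine, had 119 and 116 counts in shControl against 144 and 155 in shNeuroD1 (log2 fold change 0.35, SE 0.148, adjusted p = 0.0428), and 46.2% of its exon bases are shared with a readthrough transcript. TARS2, for threonine, had 68.7 and 66.1 CPM in shControl and 76.8 and 80.3 CPM in shNeuroD1 (log2 fold change 0.22, SE 0.0576, adjusted p = 0.00154). CARS2, for cysteine, had 43.3 and 39.6 CPM in shControl and 47.2 and 47.6 CPM in shNeuroD1 (log2 fold change 0.20, SE 0.0702, adjusted p = 0.0190). Of these 5 higher genes only AARS2 was called in DESeq2, and mitochondrial genes called higher came to 3 and 1 without shControl replicates 1 and 2, and to 2 without either shNeuroD1 replicate.

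RARS2, for arginine, fell furthest of the mitochondrial enzymes. It had 91.5 and 88.9 CPM in shControl and 67.6 and 70.7 CPM in shNeuroD1 (log2 fold change -0.38, SE 0.0560, adjusted p = 6.6e-07), with groups well apart. IARS2 for isoleucine (-0.16) also fell. Leaving out shNeuroD1 replicate 1 left 1 mitochondrial gene called lower. The other 9 had log2 fold changes between -0.29 (WARS2, for tryptophan) and 0.20 (PARS2, for proline).

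For 15 amino acids a cytosolic and a mitochondrial gene could be set side by side, in 16 pairs because the cytosolic phenylalanine enzyme has 2 genes. The cytosolic gene had the more negative log2 fold change in 11 of the 16. In 5 pairs, those of alanine, cysteine, serine, threonine and valine, the cytosolic gene was lower and the mitochondrial gene was higher. Of these 5 mitochondrial genes only AARS2, for alanine, was also called higher in DESeq2. Among all tested genes 28.2% were lower and 26.8% higher in edgeR. The farthest apart were AARS1 and AARS2, at -0.60 and 0.94. In 6 pairs the cytosolic gene was lower and the mitochondrial gene did not pass, and only isoleucine had both lower. Arginine ran the other way, with RARS1 at -0.07 and RARS2 at -0.38. The differences within a pair were not tested.

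**Figure D2:**
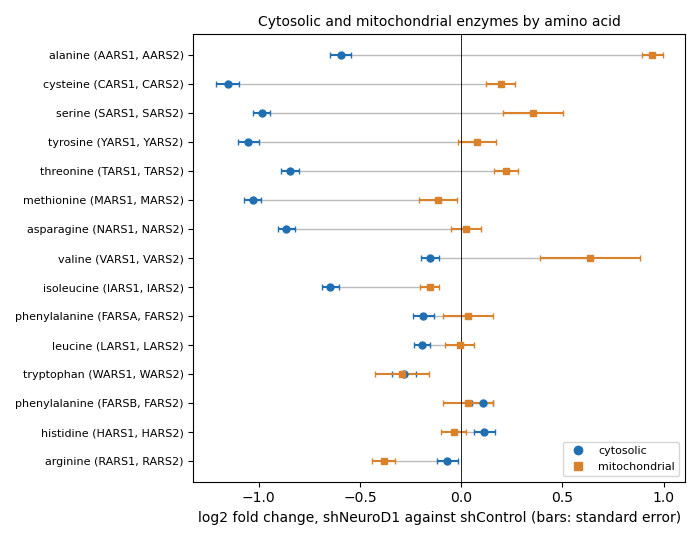
Log2 fold change of the cytosolic (circles) and mitochondrial (squares) gene of an amino acid, with bars for the standard error. The cytosolic circle lies to the left in 11 of the 15 pairs drawn, most of all for alanine (-0.60 against 0.94), and to the right for arginine (-0.07 against -0.38).

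Levels of different genes were compared per kilobase of merged exons. In shControl the cytosolic genes ranged from 8.06 CPM per kb for TARS3 to 121 CPM per kb for SARS1, with a median of 30.8. The mitochondrial genes ranged from 0.325 CPM per kb for VARS2 to 44.1 CPM per kb for IARS2, with a median of 8.20. In shNeuroD1 SARS1 was still the highest cytosolic gene, at 60.9 CPM per kb, while CARS1 became the lowest, at 5.14. EPRS1, second in shNeuroD1 at 53.4 CPM per kb, had been below GARS1 and NARS1 in shControl, where it had 74.3 CPM per kb against their 92.0 and 92.9. The cytosolic gene had the higher level per kb in 14 pairs in shControl and in 12 in shNeuroD1. AARS1 was 1.66 times AARS2 in shControl and 0.571 times AARS2 in shNeuroD1. YARS1 was likewise 1.66 times YARS2 and then 0.759 times it, and IARS1 was 1.33 times IARS2 and then 0.946 times it. For arginine the ratio went from 0.830 to 1.03. These levels depend on the length of merged exons, and a second readout given below placed YARS1, CARS1 and VARS2 differently.

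**Figure D3:**
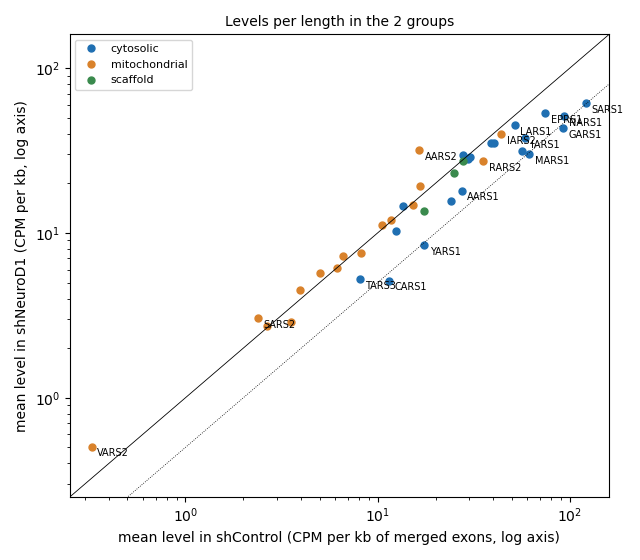
Mean level of the genes reported singly in shControl (horizontal axis) and shNeuroD1 (vertical axis), in CPM per kb of merged exons on log axes; the solid line marks equal levels and the dotted line 50% of the shControl level. SARS1, GARS1, MARS1, YARS1 and CARS1 lie on or near the dotted line over the whole range of levels, and AARS2 (16.5 and 31.7 CPM per kb) lies above the solid line.

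The other lists of tRNA charging each held genes that changed in either direction, to be read against 28.2% lower and 26.8% higher among all tested genes. Of 7 genes that deliver charged tRNA to the ribosome, 4 were lower and 1 was higher (median -0.18). EEF1A2, the neuronal and muscle form of the elongation factor, was higher (log2 fold change 1.07, SE 0.0492, adjusted p = 2.2e-18), and TSFM, a mitochondrial elongation factor, was lower (-0.39, SE 0.129, adjusted p = 0.0102). Of 13 genes of tRNA maturation and export, 7 were lower and 3 were higher (median -0.21), including TSEN15 of the splicing endonuclease (-0.63) and HSD17B10 of mitochondrial ribonuclease P (0.62). Of 9 genes of editing and indirect charging, 2 were lower and 1 was higher (median -0.04), with GATC of the mitochondrial glutamine pathway at -0.35 and AARSD1, an editing protein for alanine, at 0.22. Among 21 genes of RNA polymerase III and its factors, which transcribe tRNA genes, 8 were lower and 6 were higher (median -0.13), with POLR3K and BDP1 both at -0.43.

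Of 4 genes of the response to uncharged tRNA, ATF4, the transcription factor downstream of the sensor kinase, was lower. IMPACT, an inhibitor of that kinase's activation (log2 fold change 0.28, SE 0.0706, adjusted p = 0.000948) and GCN1, its activator, were higher, and the kinase EIF2AK4 itself did not pass (0.09, adjusted p = 0.191). The mitochondrial ribosome, which uses the mitochondrial synthetases, had 36 of 78 genes lower and 5 higher (median -0.19), from MRPS6 at -1.18 to MRPL40 at 0.58. The mitochondrial synthetases, with 3 of 17 lower, had a median of 0.03.

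**Figure D4:**
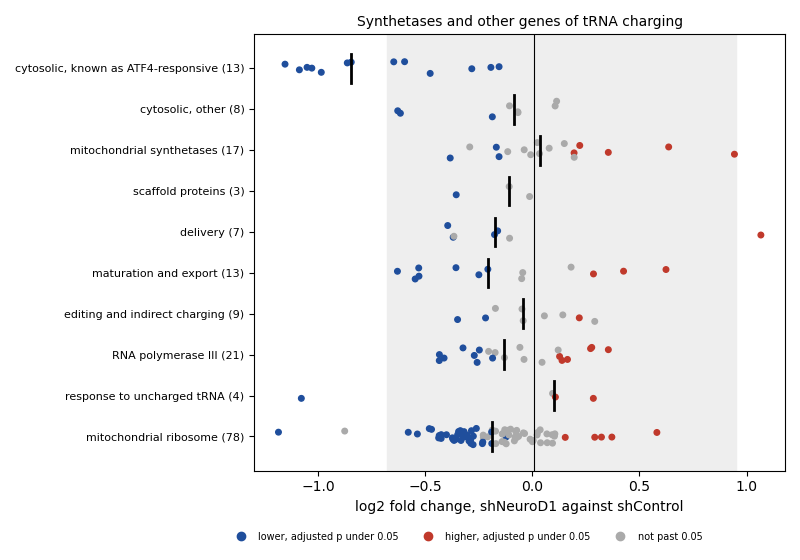
Log2 fold change of each gene in the synthetase groups and the other lists of tRNA charging, with the number of genes in parentheses; blue is lower and red higher at an adjusted p under 0.05, grey did not pass, black bars are list medians, and the thin line and shaded band mark the median and the 10th to 90th percentile of all tested genes. The 13 ATF4-responsive cytosolic genes have the lowest median of these lists (-0.84).

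The per-library tables of assembled transcripts gave a second readout, the FPKM (fragments scaled for transcript length and library size) summed over the transcript starts of a gene. Starts were listed for 36 of the 41 genes and not for FARSA, MARS2, HARS2, PARS2 and SARS2. The start of SARS1 had 140.1 and 132 FPKM in shControl and 64.4 and 67.2 in shNeuroD1, and that of GARS1 had 69.1 and 69.0 in shControl and 32.0 and 33.1 in shNeuroD1. Those of YARS1 had 41.1 and 47.6 in shControl and 18.9 and 17.6 in shNeuroD1. In limma on log2(FPKM + 1) over 10083 genes, where 2.76% of genes were lower and 2.45% higher, these 3 cytosolic genes were lower, with adjusted p of 0.0273 for SARS1, 0.0261 for GARS1 and 0.0304 for YARS1. AARS2 was higher, with 9.49 and 8.87 FPKM in shControl and 22.0 and 20.9 in shNeuroD1 (difference 1.14, adjusted p = 0.0276). VARS2, whose rise in the counts differed between the shNeuroD1 libraries, had 9.30 and 11.7 FPKM in shControl and 27.0 and 21.9 in shNeuroD1. Its groups lay apart in this readout (difference 1.15, adjusted p = 0.0502). Levels at the starts did not always keep the order of the counts per kb. YARS1 stayed above YARS2, which had 6.79 and 8.22 FPKM in shControl and 8.92 and 8.61 in shNeuroD1. AARS1 again went below AARS2, from 23.2 and 18.6 FPKM to 15.6 and 15.9. IARS1 and IARS2 overlapped in shNeuroD1 (39.0 and 32.2 against 36.1 and 36.7). CARS1 in shNeuroD1 (10.1 and 7.05) was above TARS3 (5.20 and 4.96), and VARS2 in shControl was above WARS2 (2.67 and 2.02).

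MARS1 and NARS1 changed less at the starts than in the counts. MARS1 had 50.2 and 107 FPKM in shControl and 47.1 and 62.1 in shNeuroD1, so the control libraries differed more from each other than shControl replicate 1 did from the knockdown (difference -0.43, adjusted p = 0.540). NARS1 had 35.1 and 44.8 FPKM in shControl and 39.0 and 33.4 in shNeuroD1, with overlapping groups (difference -0.13, adjusted p = 0.653). The calls of lower levels for these genes therefore rest on the counts. The same holds for the other cytosolic genes called lower, apart from GARS1, YARS1 and SARS1. CARS1 fell at the starts by a similar amount without passing in limma (difference -1.18, adjusted p = 0.0757).

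**Figure D5:**
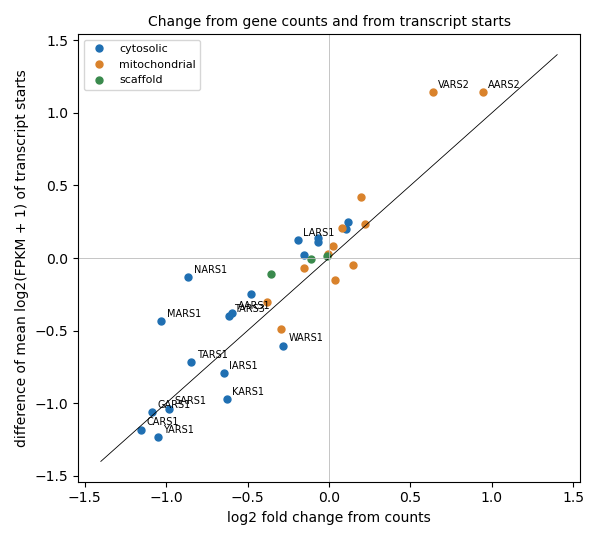
Log2 fold change from the counts (horizontal axis) against the difference of mean log2(FPKM + 1) of transcript starts (vertical axis) for genes with listed starts; the line marks equal values. CARS1, GARS1, YARS1 and SARS1 lie near the line at about the same fall in both, whereas NARS1 (-0.86 against -0.13) and MARS1 (-1.03 against -0.43) lie above it.

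Of 1036 start, end and exon events listed for 37 of the genes, 6 reached 1 FPKM in each knockdown library while absent from the lists of the control libraries, 3 in AARS2 and 3 in FARSA. The 3 in FARSA had the same values (2.48 and 3.21 FPKM), as did the exon-skipping events in AARS2 (2.99 and 2.70 FPKM), so the 6 are not separate observations. The share of such events over all genes is not given here. The reverse held for 2. In SARS1, transcripts that include the segment chr1:109221087-109221203 had 16.2 and 13.3 FPKM in shControl and were not listed in shNeuroD1. In MARS1, transcripts that include a run of exons within chr12:57504225-57516337 had 38.9 and 15.1 FPKM in shControl and were not listed in shNeuroD1. These tables list only what the assembly found, so an event that is not listed may be present below its limit.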

How the data were processed

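RNA from 2 shControl and 2 shNeuroD1 libraries was sequenced in paired ends. The authors deposited raw read counts per Ensembl gene, which HTSeq 0.6.1 made. The submitters' processing notes also name cutadapt 1.9.1, HISAT2 2.0.1, DESeq2 and hg38. For each library the authors deposited FPKM values of transcript starts, ends and exon events in assembled transcripts, from a tool not given in the sources used here. Neither the use of strand nor the annotation release is given there. Groups and replicate numbers came from the sample titles, whose final numbers were read as replicates and not as hairpins.

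Counts were fitted in edgeR 4.0.16 (R 4.3.3) with TMM scaling, filterByExpr (minimum count 10) and the two-sided quasi-likelihood F test, with Benjamini-Hochberg adjustment over 17537 genes. The standard error is the log2 fold change divided by the square root of F. A call needed an adjusted p under 0.05, and passing both thresholds also needed a log2 fold change beyond 1 in size. Total counts of 14665210 to 16482463 set the precision, so VARS2 with 42 to 79 counts was measured less precisely than the other genes. The script was tested on simulated data. FPKM were analysed in limma 3.58.1 on log2(FPKM + 1), where the mean reached 1 FPKM. This scale understates changes of low genes. DESeq2 1.42.0 was run as an alternative. Coordinates are those of GENCODE 29 (GRCh38). Promoters were taken from RefSeq, and figures were drawn with matplotlib 3.10.9.

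Some genes of the group are counted in the totals but not reported here singly. The genes and lists were chosen with earlier results of these data known. Per-library values are given for the 8 cytosolic and 6 mitochondrial synthetases with the largest change past the adjusted p, cytosolic synthetases that did not pass and the 3 scaffold proteins. Of each other list the 2 genes with the largest change past it are named, and EIF2AK4, GCN1 and the neighbours of members were named after their values were seen. Deviations of same-numbered libraries were nearly uncorrelated (0.0278 over 10560 genes). With 2 libraries per group this cannot show whether same-numbered libraries were handled together. Replicates of a group differed by more than counting noise (chi-square per degree of freedom 2.48 and 1.54).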

Additional observations from a re-analysis of the deposited data

Results flagged for a closer look

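In shNeuroD1 the assembled transcripts held events of these genes that were listed in no shControl library. There were 6, of which the retained introns and the transcript end are given. Several had identical values within a gene, so they are not separate observations, and their share over all genes is not given here. In AARS2 a retained intron at chr6:44302910-44303066 had a mean of 2.69 FPKM over both knockdown libraries (2.99 and 2.38). In FARSA a retained intron at chr19:12930527-12930612 had a mean of 2.85 FPKM (2.48 and 3.21), and a transcript end at chr19:12928410-12928457 had the same 2.85 FPKM. They were singled out because the readout lies outside the counts and was above the level in the control libraries, where the events were not listed. An assembly lists an event only when it builds a transcript that has it, AARS2 had the higher level in shNeuroD1 in the counts, and no test was run on these values.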

How the results depend on the processing

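GARS1, YARS1, SARS1 and AARS2 kept their direction and call under every alternative run, as did NEUROD1 under those on counts. NEUROD1 was taken out before the FPKM fits. The 16 lower cytosolic genes, 3 lower and 5 higher mitochondrial genes and 4 genes past both thresholds were the same counts with the replicate block, which gave a cytosolic median of -0.60 and changed no call of a member. Cytosolic genes lower fell to 13 with library size alone, where LARS1 (-0.08), FARSA (-0.07) and VARS1 (-0.04) did not pass. They fell to 3 in both limma fits of FPKM. Mitochondrial genes lower fell to 0 in those fits and to 1 with library size alone. Cytosolic genes higher came to 2 (FARSB and HARS1) with library size alone and with a mean of at least 1 CPM. Mitochondrial genes higher came to 2 with no filter on low counts and to 1 in DESeq2 and both FPKM fits. Members lower past both thresholds came to 1 with library size alone, and members higher to 1 (AARS2) there and in both FPKM fits. The cytosolic median was -0.48 with library size alone, -0.61 with no filter, -0.58 with a mean of at least 1 CPM, -0.61 in DESeq2, and -0.39 and -0.42 in the FPKM fits with added 1 and 0.1. The mitochondrial median was 0.15 with library size alone, which moves the median of all genes to 0.12 and the lower share of calls from 51.3% to 37.3%.

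Leaving out each library in turn gave 1 to 3 mitochondrial genes lower (1 without shNeuroD1 replicate 1), 1 to 3 higher (3 and 1 without shControl replicates 1 and 2, 2 without either shNeuroD1 replicate) and a cytosolic median of -0.62 to -0.57. A group left with 1 library is assumed to vary like the other.

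Changes of sign arose mostly in genes near 0. With library size alone RARS1 was 0.0445, QARS1 0.0457, HARS2 0.0746, LARS2 0.10, AIMP2 0.0046 and AIMP1 0.10. With a mean of at least 1 CPM LARS2 was 0.0059 and AIMP1 0.0008. In the FPKM fits with added 1 and 0.1, LARS1 was 0.12 and 0.13, VARS1 0.0239 and 0.0248, RARS1 0.14 and 0.14, QARS1 0.11 and 0.11, LARS2 0.0264 and 0.0312, FARS2 -0.15 and -0.20, EARS2 -0.0467 and -0.0491, and AIMP1 0.0172 and 0.0188. Leaving out each library in turn, QARS1 ran from -0.158 to 0.0062 (without shControl replicate 1), LARS2 from -0.0882 to 0.0599 and NARS2 from -0.0077 to 0.0487. The cause of these changes was not tested. Over all genes, calls were 4939 lower and 4698 higher in the count fit, 3580 and 2757 in DESeq2, and 278 and 247 in the FPKM fit with added 1.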
